A study of Mus musculus with 8 samples.

Results

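The 10 genes described here encode secreted proteins that act on blood and lymphatic vessels: Ccbe1, Angpt1, Angpt2, Vegfb, Vegfc, Vegfd, Pgf, Thbs1, Thbs2 and Hgf. They were taken by gene symbol from the gene table of C3H10T1/2 cells, in which all 10 were found among 18605 genes, and all 10 passed the filter on low counts that left 13470 genes for testing. C3H10T1/2 is a mouse mesenchymal stem cell line from C3H embryos, grown as 1 line and infected with lentivirus in every group. NC cells carried the non-target control and KD-Nap1l2 cells an shRNA against Nap1l2, and both were taken without induction. NC-7d and KD-Nap1l2-7d are the corresponding cells after 7 days in osteogenic medium with dexamethasone, ascorbic acid and β-glycerophosphate. Each group had 2 RNA-seq libraries, 8 in all, and no source used here says that they came from separate cultures, so the p-values measure the spread between these libraries, which may be technical.

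Vascular endothelial growth factors (VEGFs) signal through receptor tyrosine kinases on endothelial cells. VEGF-C and VEGF-D, the products of Vegfc and Vegfd, are the ligands of the lymphatic receptor VEGFR-3 (Flt4) and are secreted as precursors that proteases trim. CCBE1 is an extracellular matrix protein that promotes the trimming of VEGF-C by ADAMTS3, and it is required for lymphatic vessels to form. VEGF-B and placental growth factor (Pgf) bind VEGFR-1 (Flt1). Angiopoietin-1 activates the receptor Tie2 (Tek), and angiopoietin-2 opposes it in many settings. Thrombospondins 1 and 2 are matricellular inhibitors of vessel growth that bind CD36 and CD47, and hepatocyte growth factor (Hgf) acts through Met. Mesenchymal cells make several of these proteins for neighbouring vessels.

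The library totals ran from 17420284 to 19427359 estimated counts, so that the floor of 3 counts was 0.154 to 0.172 CPM (counts scaled to library size). Nap1l2 itself was near that floor, with 3 and 3 counts in NC, 2 and 7 in KD-Nap1l2, 15 and 5 in NC-7d and 7 and 13 in KD-Nap1l2-7d. A reduction of the targeted transcript was not detectable at this depth, with a log2 fold change of 0.64 ± 0.98 (SE) in the libraries labelled KD-Nap1l2 against NC, and directions below rest on the labels. The summed FPKM (counts scaled to gene length and library size, by the authors) of 8 mesenchymal markers was high, at 4040 to 8192. Vim, Ly6a, Col1a2 and Col1a1 led it, with means of 2625, 1815, 846 and 570 FPKM. Thy1 was the lowest of the 8, at 0.59 to 5.79 FPKM. Of the 6 osteoblast markers, Sp7, Alpl and Ibsp were under 1 FPKM in every library, also after induction, and Bglap was at 0 to 2.83 FPKM. Spp1 was high, at 1067 to 3683 FPKM, and was called higher with induction in the shRNA arm (log2 fold change 1.41 ± 0.38, adjusted p = 0.0446, edgeR). It rose in the control arm too, without a call (1.19 ± 0.38, adjusted p = 0.0974, edgeR). The difference between the arms was 0.22 ± 0.53 (adjusted p = 0.947, edgeR). No FPKM level is given for Runx2, since its FPKM in the gene table differed from the sum over its transcripts by more than 5% (of its highest FPKM plus 1), which was so for 1 of 18605 genes. Its counts, which the tests used, were the same in both tables within 1 count. By these counts Runx2 was called lower with induction in the shRNA arm (log2 fold change -0.58 ± 0.14, adjusted p = 0.0334, edgeR). It was lower in the control arm too, without a call (-0.46 ± 0.14, adjusted p = 0.0924, edgeR). Its difference between the arms was -0.13 ± 0.20 (adjusted p = 0.916, edgeR). Endothelial markers were under 1 FPKM in every library for 8 of 10 genes, with a summed level of 1.13 to 2.86 FPKM, and all 3 lymphatic endothelial markers in the table, Lyve1, Flt4 and Mmrn1, were at or below 0.06 FPKM. Of the macrophage and of the epithelial markers, 3 of the 4 genes in the table were under 1 FPKM in every library. The macrophage list named 6 genes. The exceptions were Cd68, a macrophage marker, at 2.56 to 9.03 FPKM, and Cdh1, an epithelial one, at 0.35 to 1.88 FPKM. Cd68 averaged 3.9 FPKM in NC-7d and 7.4 in KD-Nap1l2-7d, which was not called (adjusted p = 0.553, edgeR). The summed FPKM of 10 interferon-stimulated genes differed between libraries, at 2672 to 3950 in NC, 473 to 1186 in KD-Nap1l2, 676 to 3462 in NC-7d and 1858 to 2606 in KD-Nap1l2-7d. All values are of bulk samples, in which fewer cells of a kind and less RNA per cell cannot be told apart.

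Levels per length placed the 10 genes in an upper set of 6 and a lower set of 4. Over the 8 libraries, the mean FPKM was 107 for Thbs1, 70.1 for Vegfb, 54.8 for Vegfd, 27.2 for Angpt1, 13.6 for Thbs2 and 12.8 for Hgf. It was 2.29 for Angpt2, 1.65 for Ccbe1, 1.63 for Vegfc and 1.57 for Pgf. Neighbours in this order overlapped over the 8 libraries, down to Hgf, whose lowest library (6.99 FPKM) lay under the highest of Angpt2 (7.79 FPKM). The order differed between the groups. In NC, Thbs1 was first at 159 ± 88.4 FPKM (SD, n = 2) and Vegfd the third at 25.2 ± 4.35 FPKM, while in NC-7d Vegfd was first at 97.7 ± 28.4 FPKM and Thbs1 the third at 44.1 ± 2.86 FPKM. Ccbe1 was last in NC at 0.93 ± 0.11 FPKM and last in KD-Nap1l2 at 0.065 ± 0.0071 FPKM, and it was the seventh in NC-7d at 3.35 ± 0.035 FPKM. Between its lowest and its highest library Ccbe1 spanned 56.2-fold in FPKM, Angpt2 13.2-fold and Vegfc 6.64-fold, and Vegfb spanned 2.05-fold.

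**Figure D1:**
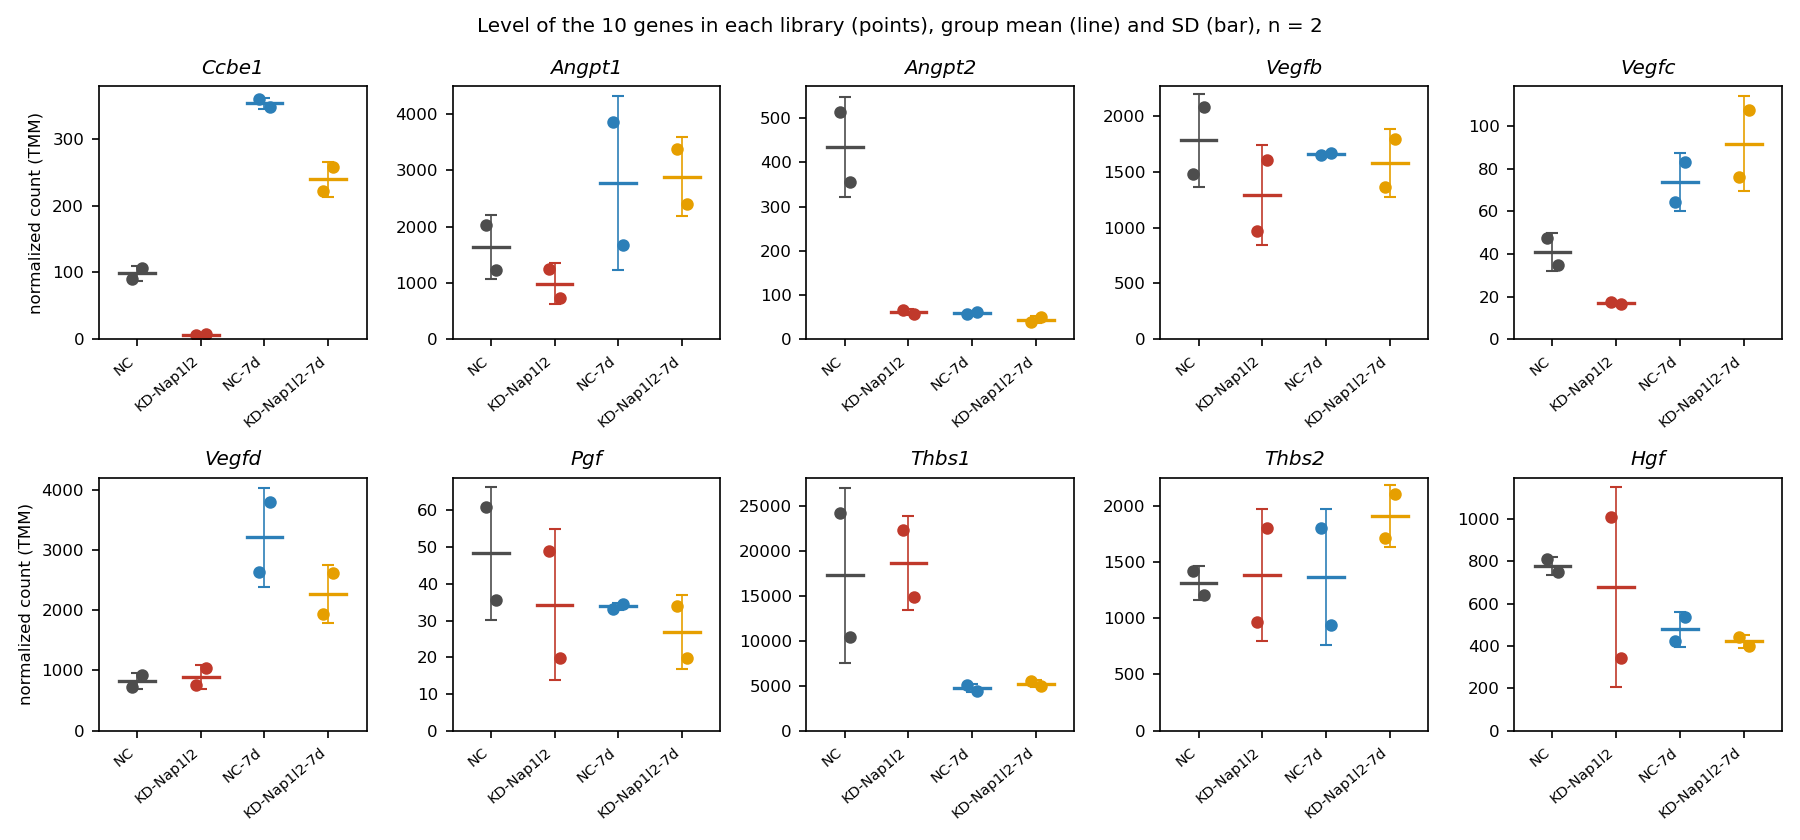
Normalized counts (TMM-scaled, linear axes from 0) of the 10 genes, with 1 point per library, a line at the group mean and a bar for the SD (n = 2). Ccbe1 was at 5.87 and 7.28 in KD-Nap1l2 and between 222 and 360 in the 4 induced libraries, Angpt2 was at 355 and 514 in NC and at 38.1 to 66.5 in the other 6 libraries, and Thbs1 was at 10405 to 24172 in the 4 libraries without induction and at 4423 to 5486 in the induced ones.

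Ccbe1 (Entrez gene 320924) lies on the minus strand of chromosome 18 at 66045302 to 66302741 (GRCm38, GENCODE vM21), and the files hold 1 transcript for it, NM_178793.4. An antisense RNA, Gm15958, overlaps it, and whether the counting used the strand is not given in the sources used here. Its normalized counts were 90.6 and 107 in NC, 5.87 and 7.28 in KD-Nap1l2, 360 and 348 in NC-7d, and 222 and 258 in KD-Nap1l2-7d. The 4 groups followed each other without overlap, from KD-Nap1l2 through NC and KD-Nap1l2-7d to NC-7d. Behind the KD-Nap1l2 values stood 6 and 7 estimated counts, against 92 and 114 in NC. Ccbe1 was chosen by its normalized counts in KD-Nap1l2 against NC, and the difference is therefore given as a description, with a log2 fold change of -3.88 ± 0.26 (SE), or 14.8-fold lower in KD-Nap1l2 than in NC.

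After 7 days of induction the gap between the arms was smaller. KD-Nap1l2-7d lay below NC-7d without overlap, by a log2 fold change of -0.56 ± 0.18 (SE), with an unadjusted p-value of 0.0150 and an adjusted p-value of 0.519 (edgeR's quasi-likelihood test, Benjamini-Hochberg over 13470 genes), so the difference did not pass the test. Between the uninduced and the induced libraries the log2 fold change was 1.84 ± 0.19 in the control arm and 5.16 ± 0.26 in the shRNA arm. These values share the NC and KD-Nap1l2 libraries with the difference that chose the gene and are given without a test. The response to induction was 3.32 ± 0.33 (SE) larger in the shRNA arm on the log2 scale, while both induced groups were between 222 and 360 normalized counts. The interferon-stimulated genes, which were lower in KD-Nap1l2 for all 10 genes with none called, moved with Ccbe1 before induction, and their part in the result was not tested. In NC-7d, where the summed FPKM of these genes was 676 in 1 library and 3462 in the other, Ccbe1 was at 360 and 348 normalized counts.

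The genes whose pattern over the 8 libraries was most like that of Ccbe1 were ranked by Pearson's r of log2 CPM among the 11271 genes whose normalized counts averaged 50 or more. Highest were Tpp1, a lysosomal tripeptidyl peptidase (r = 0.990), Sft2d1 (0.983), Eepd1 (0.980), Slc43a2, an amino acid transporter (0.978), and B4galnt1, a ganglioside synthase (0.976). Eepd1 had the widest range of the 5 as a fold, with mean normalized counts of 513 in NC, 149 in KD-Nap1l2, 823 in NC-7d and 616 in KD-Nap1l2-7d. Lowest were Btbd3 (-0.992), Kcnip4 (-0.983) and Tprg (-0.981), and Tprg had mean normalized counts of 42.3, 140, 17.8 and 27.7 in the same order of groups. The points are 4 pairs of libraries that share their group, so these values describe the 4 group levels. Without the 2 KD-Nap1l2 libraries, which lie farthest from the median of Ccbe1, r over the other 6 was 0.869 to 0.972 for the 5 genes and -0.937 to -0.987 for the 3.

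Of the other 9 genes, Vegfc followed Ccbe1 most closely over the 8 libraries (r = 0.941, and 0.762 without the 2 KD-Nap1l2 libraries). Vegfd had r = 0.753 over all 8 libraries and 0.976 over the 6, and Angpt2 -0.043 and -0.899. Angpt2 was high in NC alone, where Ccbe1 was at an intermediate level. Between other members, Vegfd and Thbs1 had r = -0.949 and Pgf and Hgf r = 0.846, over the same 4 pairs of libraries.

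**Figure D2:**
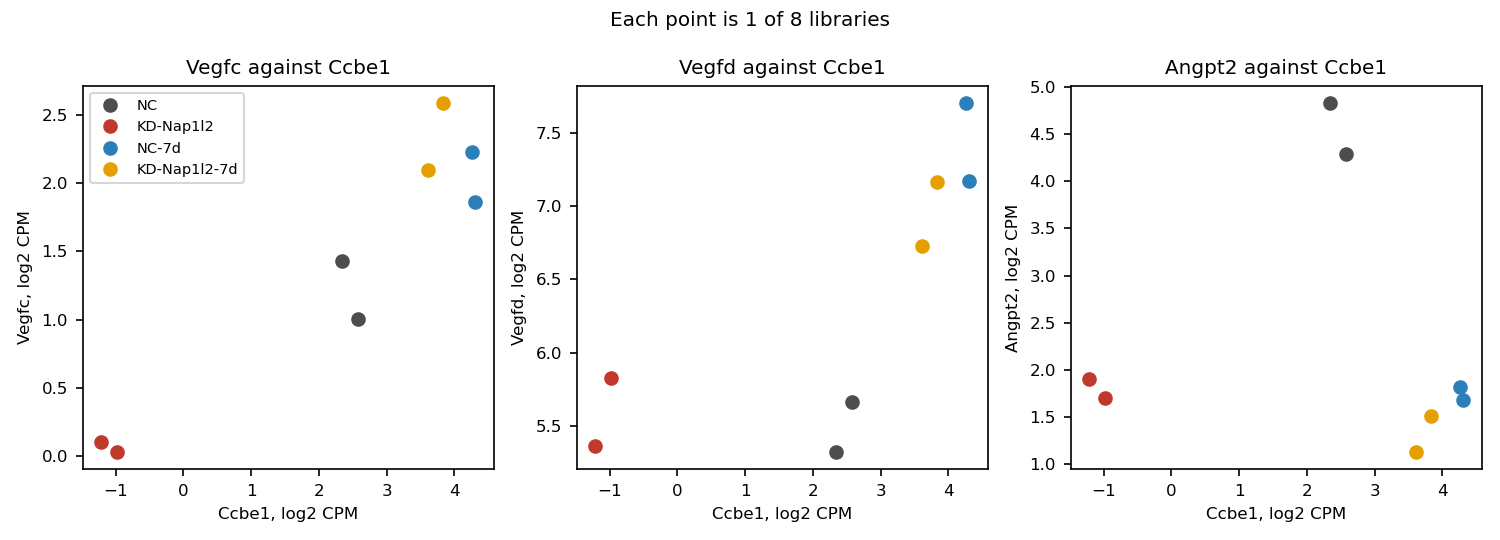
Log2 CPM (TMM, prior count 2) of Vegfc, Vegfd and Angpt2 on the vertical axes against Ccbe1 on the horizontal axes, with 1 point for each of 8 libraries, coloured by group. Vegfc was lowest in the KD-Nap1l2 and highest in the induced libraries, as Ccbe1 was (r = 0.941), Vegfd set the 4 induced libraries apart from the other 4, and Angpt2 was high in the 2 NC libraries alone.

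Vegfc (22341) lies on the plus strand of chromosome 8 at 54077606 to 54187096 and has 1 transcript in the files, NM_009506.2. Vegfd (14205) lies on the plus strand of the X chromosome at 164373378 to 164402650. Both encode ligands of the lymphatic receptor, and besides Ccbe1, whose call there is no test, they are the members called higher with induction in the shRNA arm. Angpt1, with a log2 fold change of 1.55 ± 0.44 there, just missed the call (adjusted p = 0.0538, edgeR). The 250 bases before the RefSeq transcription start of Vegfc and of Vegfd (GRCm38.p6, plus strand) are shown. These 2 ligands were both called higher in that arm while their promoters differ in composition. Capitals mark any match to 5 short motifs, searched on both strands, none of which contains another. The TATA box was searched as TATAAA. The GC box was searched as GGGCGG. The AP-1 motif was searched as TGANTCA, in which N is any base. The glucocorticoid receptor half-site was searched as AGAACA. The core of the hypoxia-inducible factor motif was searched as ACGTG. The windows are chr8:54077282-54077531 for Vegfc and chrX:164373272-164373521 for Vegfd.

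Vegfc: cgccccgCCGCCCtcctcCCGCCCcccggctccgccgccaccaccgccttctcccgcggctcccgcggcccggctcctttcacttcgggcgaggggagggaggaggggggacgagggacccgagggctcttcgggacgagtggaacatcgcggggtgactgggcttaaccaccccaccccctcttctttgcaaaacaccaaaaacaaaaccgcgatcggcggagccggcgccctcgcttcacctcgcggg

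Vegfd: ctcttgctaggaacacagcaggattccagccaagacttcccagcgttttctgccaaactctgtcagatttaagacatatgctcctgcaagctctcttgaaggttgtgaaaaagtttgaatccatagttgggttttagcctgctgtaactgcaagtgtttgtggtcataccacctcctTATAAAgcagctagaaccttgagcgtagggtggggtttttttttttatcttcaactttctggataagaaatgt

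The Vegfc window was 71.6% G and C and held 2 GC boxes and none of the other 4 motifs. The Vegfd window was 42.4% G and C and held the letters of a TATA box, beginning 73 bases before the RefSeq start, and no GC box. GENCODE vM21 places the start of Vegfd further upstream, at 164373378, so that by that annotation these letters lie inside the gene. Among the 32851 promoter windows of the same length, with a median of 52.4% G and C, 32.7% held a GC box, 12.4% the TATA letters, 6.75% the AP-1 letters, 16.1% the glucocorticoid half-site and 16.6% the hypoxia core. Windows for 6 of the 10 genes were in the table. Vegfb held 4 GC boxes, 1 of 2 Pgf windows held 2, Thbs2 held a TATA box 126 bases before the start, and neither of 2 Hgf windows held any of the 5 motifs. These matches are descriptions of letters.

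Vegfc was measured at 47.3 and 34.6 normalized counts in NC, 17.6 and 16.7 in KD-Nap1l2, 64.2 and 83.4 in NC-7d, and 76.2 and 108 in KD-Nap1l2-7d. The KD-Nap1l2 libraries were the lowest, below NC without overlap, and the 2 induced groups overlapped. In 7 of the 8 libraries its estimated count was not whole, so that some of its reads were shared with other transcripts in the counting. The log2 fold change of KD-Nap1l2 against NC was -1.25 ± 0.34 (SE), given as a description. In the shRNA arm Vegfc rose with induction by a log2 fold change of 2.41 ± 0.34 (adjusted p = 0.00511, edgeR), or 5.33-fold. Across 18 other settings this adjusted p-value ran from 1.83e-05 to 0.0492. In the control arm the log2 fold change was 0.85 ± 0.31 (adjusted p = 0.142, edgeR) and did not pass. The rise in the shRNA arm starts from the low KD-Nap1l2 libraries, and the difference between the arms, 1.56 ± 0.46 on the log2 scale, did not pass the test (adjusted p = 0.554, edgeR).

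Vegfd was at 730 and 924 normalized counts in NC, 749 and 1035 in KD-Nap1l2, 2627 and 3792 in NC-7d, and 1931 and 2611 in KD-Nap1l2-7d. The 4 libraries without induction overlapped, all 4 induced ones were higher, and the KD-Nap1l2-7d libraries lay just below those of NC-7d. With induction Vegfd rose by a log2 fold change of 1.96 ± 0.26 in the control arm (adjusted p = 0.00575, edgeR) and 1.35 ± 0.25 in the shRNA arm (adjusted p = 0.0143, edgeR). These are 3.88-fold and 2.55-fold. The call in the control arm was lost without NC replicate 1 (adjusted p = 0.0721) and that in the shRNA arm without either KD-Nap1l2-7d library (adjusted p = 0.0504 and 0.109, edgeR). At 7 days KD-Nap1l2-7d differed from NC-7d by -0.50 ± 0.25 on the log2 scale, which did not pass (adjusted p = 0.688, edgeR), and before induction the difference was 0.11 ± 0.25.

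Vegfb (22340, chromosome 19, 6982473 to 6987651) and Pgf (18654, chromosome 12, 85166635 to 85177790), the ligands of VEGFR-1, were not called in any comparison that was tested. Vegfb was at 1486 and 2081 normalized counts in NC, 973 and 1608 in KD-Nap1l2, 1651 and 1673 in NC-7d, and 1367 and 1795 in KD-Nap1l2-7d. All 4 groups of Vegfb overlapped with one another apart from NC-7d, whose libraries lay above those of KD-Nap1l2. Its log2 fold change was -0.10 ± 0.26 in the control arm of induction (adjusted p = 0.849, edgeR) and 0.29 ± 0.26 in the shRNA arm (adjusted p = 0.480, edgeR). Pgf had 61.1 and 35.5 normalized counts in NC, 48.9 and 19.8 in KD-Nap1l2, 33.2 and 34.5 in NC-7d, and 34.1 and 19.8 in KD-Nap1l2-7d. The NC-7d libraries lay just below those of NC without overlap and the other pairs compared overlapped, and its log2 fold changes, from -0.51 ± 0.49 to -0.32 ± 0.51, were about the size of their standard errors.

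The angiopoietins differed from each other. Angpt2 (11601, chromosome 8, 18690263 to 18741562, minus strand) was at 514 and 355 normalized counts in NC, 66.5 and 57.2 in KD-Nap1l2, 56.7 and 62.3 in NC-7d, and 38.1 and 50.1 in KD-Nap1l2-7d. Only the NC libraries were high, and the other 6 lay between 38.1 and 66.5. The gene lies inside Mcph1, a protein-coding gene on the opposite strand, and its estimated count was not whole in 7 of 8 libraries, so its level carries the uncertainty of reads shared in the counting. Angpt2 was among the 11 genes called between KD-Nap1l2 and NC, and its values are given as a description, like those of Ccbe1. The log2 fold change was -2.81 ± 0.26 in KD-Nap1l2 against NC, -2.86 ± 0.26 in NC-7d against NC, and -0.49 ± 0.27 in KD-Nap1l2-7d against KD-Nap1l2. At 7 days the knockdown comparison gave -0.43 ± 0.27 (adjusted p = 0.763, edgeR), with groups that did not overlap. As for Ccbe1, the summed level of interferon-stimulated genes was high in both NC libraries and low in both KD-Nap1l2 libraries. The NC-7d library with 3462 FPKM of these genes and the one with 676 FPKM had Angpt2 within 56.7 to 62.3 normalized counts. The part of these genes in the result was not tested.

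Angpt1 (11600, chromosome 15, 42424723 to 42676977, minus strand) was at 2036 and 1234 normalized counts in NC, 1245 and 730 in KD-Nap1l2, 3862 and 1681 in NC-7d, and 3384 and 2393 in KD-Nap1l2-7d. The 2 NC-7d libraries were the farthest apart, both induced groups lay above KD-Nap1l2, and KD-Nap1l2-7d lay above NC. With induction in the shRNA arm the log2 fold change was 1.55 ± 0.44, which just missed the threshold of 0.05 (adjusted p = 0.0538, edgeR). The range over 18 other settings was 0.000502 to 0.249, and 6 of them made the call, DESeq2 among them. In the control arm the log2 fold change was 0.76 ± 0.43 (adjusted p = 0.322, edgeR), and at 7 days the knockdown comparison gave 0.06 ± 0.43 (adjusted p = 0.987, edgeR).

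Thbs1 (21825, chromosome 2, 118111876 to 118127133, plus strand) was the most abundant of the 10 genes without induction and fell with induction in both arms. It was at 24172 and 10405 normalized counts in NC, 22363 and 14911 in KD-Nap1l2, 5075 and 4423 in NC-7d, and 5486 and 4939 in KD-Nap1l2-7d. The 2 arms overlapped before induction, and all 4 induced libraries lay below all 4 others. The log2 fold change was -1.86 ± 0.37 in the control arm (adjusted p = 0.0242, edgeR), or 3.64-fold lower, and -1.84 ± 0.37 in the shRNA arm (adjusted p = 0.0191, edgeR), or 3.58-fold lower. The call in the control arm was lost on log2(FPKM + 1) with limma (adjusted p = 0.0795) and without NC replicate 1, where the log2 fold change was -1.13 (adjusted p = 0.111, edgeR). It was also lost without either NC-7d library (adjusted p = 0.0815 and 0.0852, edgeR) and without either KD-Nap1l2-7d library (0.0562 and 0.0556). The call in the shRNA arm was lost without KD-Nap1l2 replicate 1 (adjusted p = 0.0505, edgeR) and without either KD-Nap1l2-7d library (0.122 and 0.134). Over 18 other settings, which also hold losses in both arms on log2(FPKM + 1), the call was made in 10 for the control arm and in 14 for the shRNA arm. Beside Thbs1, the summed level of 5 pericyte and smooth muscle markers, most of it Acta2, was 714 to 910 FPKM in NC and 957 to 1584 in KD-Nap1l2. It was 322 to 668 FPKM in NC-7d and 286 to 386 in KD-Nap1l2-7d. The single markers differed: in each arm, 3 of the 4 tested were lower with induction and 1 was higher. Acta2 had log2 fold changes of -0.75 ± 0.36 in the control arm and -1.95 ± 0.38 in the shRNA arm. Cspg4 had 0.01 ± 0.19 and -0.86 ± 0.19, and Des -0.15 ± 0.33 and 0.24 ± 0.32. The part of these markers in the change of Thbs1 was not tested. For Thbs1, the knockdown comparison at 7 days gave 0.13 ± 0.36 (adjusted p = 0.966, edgeR).

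Thbs2 (21826, chromosome 17, 14665500 to 14694235, minus strand), the other thrombospondin, was at 1416 and 1207 normalized counts in NC, 969 and 1798 in KD-Nap1l2, 1797 and 942 in NC-7d, and 1715 and 2100 in KD-Nap1l2-7d. The groups overlapped except that both KD-Nap1l2-7d libraries lay above those of NC by their ranges. In the control arm the log2 fold change with induction was 0.06 ± 0.35 (adjusted p = 0.936, edgeR), against -1.86 ± 0.37 for Thbs1. In the shRNA arm it was 0.46 ± 0.35 (adjusted p = 0.402, edgeR), and at 7 days the knockdown comparison gave 0.48 ± 0.35 (adjusted p = 0.806, edgeR).

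Hgf (15234, chromosome 5, 16553495 to 16620152, plus strand) was at 809 and 747 normalized counts in NC, 1010 and 344 in KD-Nap1l2, 421 and 537 in NC-7d, and 444 and 399 in KD-Nap1l2-7d. The induced libraries lay below those of NC, whereas the 2 KD-Nap1l2 libraries lay above and below all others. The log2 fold change with induction was -0.70 ± 0.41 in the control arm (adjusted p = 0.338, edgeR) and -0.69 ± 0.41 in the shRNA arm (adjusted p = 0.294, edgeR). Neither passed the test. Without KD-Nap1l2 replicate 1 the value in the shRNA arm turned to 0.29, and without KD-Nap1l2 replicate 2 it was -1.26 and called (adjusted p = 0.0106, edgeR). In the control arm the call was made without either KD-Nap1l2 library (adjusted p = 0.0319 and 0.0304, edgeR), at a log2 fold change of -0.70 each time.

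**Figure D3:**
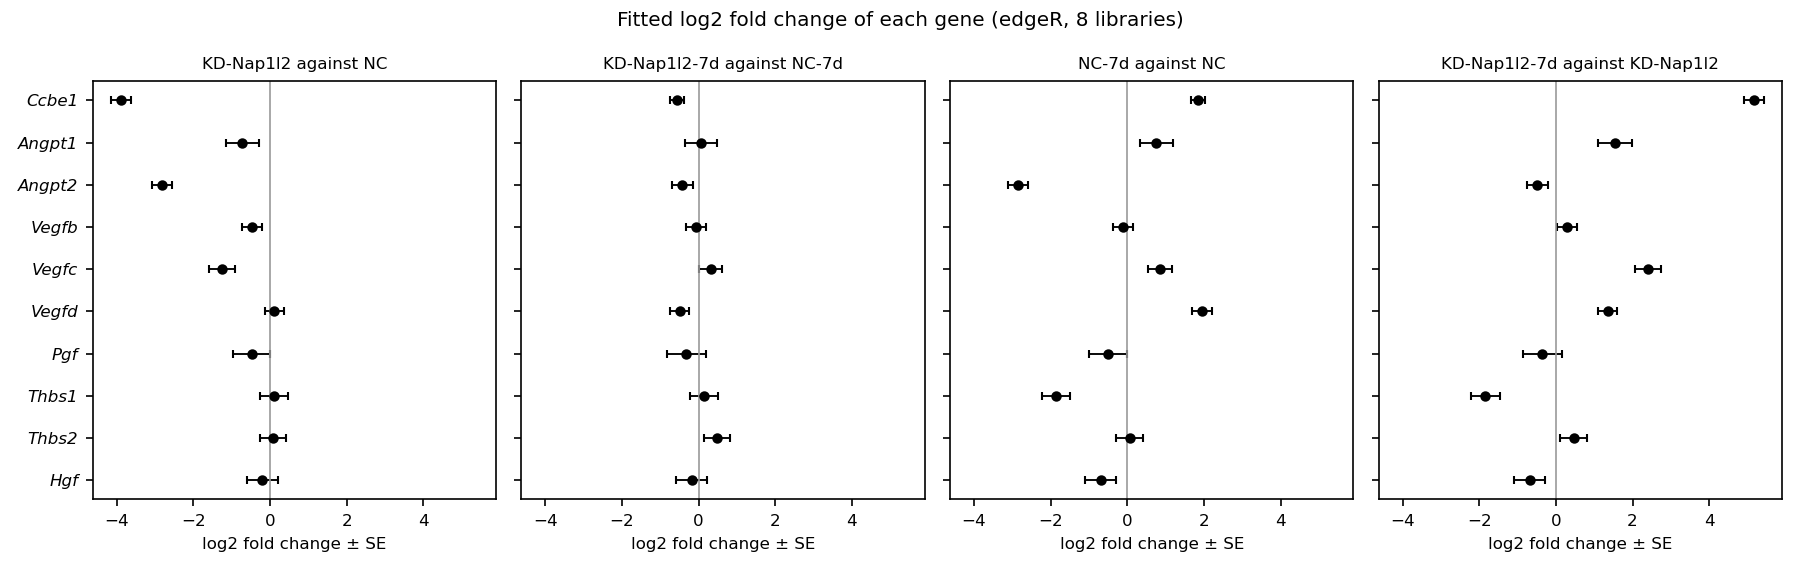
Fitted log2 fold change (horizontal axis, points) and its SE (bars) of the 10 genes in the 4 comparisons, from 1 edgeR fit of 8 libraries. In the knockdown comparison Ccbe1 was at -3.88 before induction and -0.56 after it, and in both induction comparisons Vegfd was above 1 and Thbs1 below -1.

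Counted over the set, 2 of the 10 genes, Ccbe1 and Angpt2, were among the 11 of 13470 genes (0.0817%) called in KD-Nap1l2 against NC, the comparison from which the set was proposed, and nothing is read from that share. Without NC replicate 2 or KD-Nap1l2 replicate 2, 0 of the 10 were called there, and 3 were called without KD-Nap1l2 replicate 1. In that comparison 3 of 10 genes had groups that did not overlap, against 43.2% of all genes. At 7 days, 0 of 10 genes and 0% of all genes were called by edgeR, while 1057 genes had an unadjusted p under 0.05 and DESeq2 called 78, none of the 10 among them. Groups of 3 of the 10 genes did not overlap at 7 days, against 42.1% of all genes. With induction in the control arm 4 of 10 were called, against 8.21% of all genes: Ccbe1 and Vegfd higher, Angpt2 and Thbs1 lower. In the shRNA arm 4 of 10 were called, against 14.2% of all genes: Ccbe1, Vegfc and Vegfd higher and Thbs1 lower. These counts fell to 2 without NC replicate 1 in the control arm and without either KD-Nap1l2-7d library in the shRNA arm. Groups did not overlap for 7 of 10 genes in the control arm and 6 of 10 in the shRNA arm, against 57.8% and 61.4% of all genes. Ccbe1 and Angpt2 were chosen for values of the uninduced libraries, which the induction comparisons share, so their calls there are no test. Apart from them, Vegfd and Thbs1 were called in the control arm, and Vegfc, Vegfd and Thbs1 in the shRNA arm. All the genes were chosen with results of these data known, so the shares above are descriptions. The median log2 fold change of the 10 was -0.48, -0.13, -0.02 and 0.38 in the 4 comparisons in this order, against 0.01, -0.01, 0.00 and -0.01 over all genes.

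A test of the difference between the arms in the response to induction called 0 of 10 genes and 0% of all genes with edgeR, with 948 genes at an unadjusted p under 0.05. DESeq2 called 0.759% of all genes in it, with Ccbe1 and Angpt2 among them. The low KD-Nap1l2 values of Ccbe1 and the high NC values of Angpt2 enter this difference again. For the other 8 genes the differences ran from -0.61 ± 0.35 (Vegfd) to 1.56 ± 0.46 (Vegfc) on the log2 scale.

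Angpt1, Vegfb, Vegfd, Thbs1 and Hgf had several transcripts, whose shares were read from the transcript table. Vegfb is known to be spliced to a shorter and a longer form. Its transcript NM_011697.3 held 59.6% to 74.3% of the gene's estimated count and NM_001185164.1 25.7% to 40.4%. The mean share of NM_001185164.1 was 26.6% in NC, 28.9% in KD-Nap1l2, 36.5% in NC-7d and 33.5% in KD-Nap1l2-7d. In Thbs1, NM_011580.4 held a median of 64.9%, up to 74.5%. In Angpt1, NM_001286062.1 held 63.2% to 80.6%, with means of 70.5% in NC, 77.3% in KD-Nap1l2, 64.7% in NC-7d and 80.0% in KD-Nap1l2-7d. In Vegfd, NM_010216.2 held 67.8% to 79.7%. In Hgf, NM_001289461.1 held 56.9% to 76.5%, and 1 further transcript, NM_001289459.1, was at 0 in 7 of 8 libraries. In every one of these 5 genes the leading transcript was the same in all 8 libraries. Shares are estimates of the authors' counting from overlapping transcripts and were not tested. Pgf was read almost wholly from NM_001271705.1, with 95.2% to 100% of its count.

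**Figure D4:**
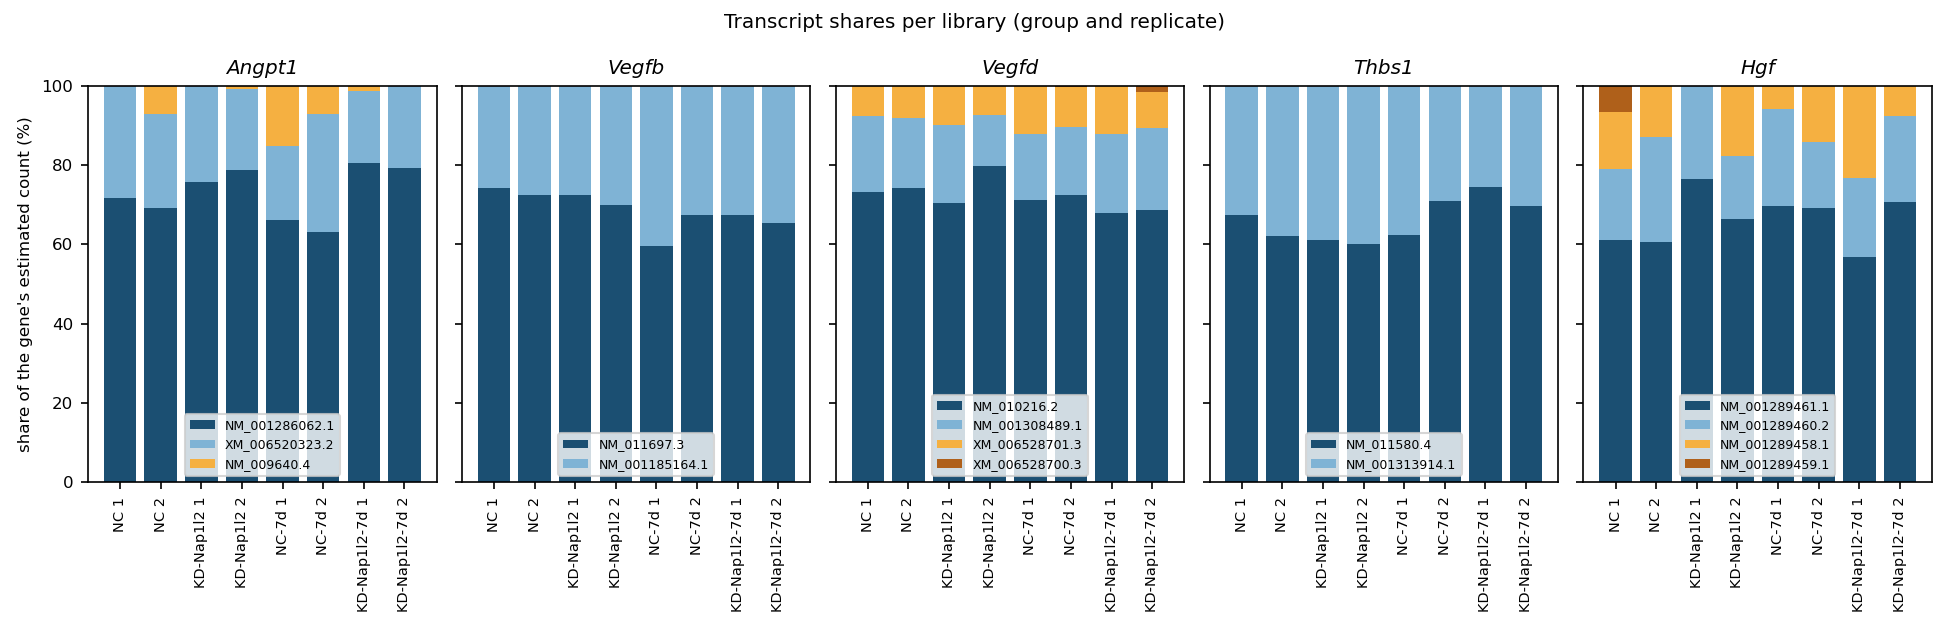
Share of each gene's estimated count (vertical axis, percent) given to each transcript in the 8 libraries (horizontal axis, group and replicate) for Angpt1, Vegfb, Vegfd, Thbs1 and Hgf. The leading transcript held more than 56% of the count in every library, and the second Vegfb transcript held 25.7% to 40.4%.

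The proteins that process VEGF-C were read from a list of 6. Furin, a proprotein convertase that cleaves the VEGF-C precursor, had the highest level, with a mean of 34.0 FPKM and a range of 27.0 to 40.1. Adamts2 was at 8.69 to 15.8 FPKM, Pcsk7 at 8.46 to 12.8 and Adamts14 at 2.95 to 5.11. Adamts3, the protease that CCBE1 acts on, had at most 1 count in any library and Pcsk5 at most 5, and neither was tested. Of the 4 genes tested, 0 were called in any of the 5 comparisons with edgeR. At 7 days all 4 lay lower in KD-Nap1l2-7d than in NC-7d, with a median log2 fold change of -0.33 against -0.01 over all genes. The smallest adjusted p-value there was 0.621 (edgeR), for Furin.

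The receptors were measured in the same cells. Cd47, a thrombospondin receptor, and Nrp1 and Nrp2, co-receptors of VEGFs and class 3 semaphorins, led with mean levels of 49.2, 44.1 and 32.4 FPKM. Kdr, Flt4 and Tie1, receptors that define endothelial cells, had at most 3, 4 and 2 counts in a library and were not tested. Of the 7 receptors tested, 2 rose with induction in the control arm, 2 rose and 1 fell in the shRNA arm, and 0 were called in the knockdown comparisons. Over all genes tested, 8.21% were called in the control arm and 14.2% in the shRNA arm. Met, the receptor of Hgf, rose in both arms, by log2 fold changes of 1.56 ± 0.22 (adjusted p = 0.00717, edgeR) and 1.51 ± 0.21 (adjusted p = 0.00531, edgeR). Its mean level was 2.22 FPKM in NC and 3.15 in KD-Nap1l2, and 6.60 and 9.06 in their induced counterparts. Nrp2 rose in the control arm by 0.78 ± 0.17 (adjusted p = 0.0328, edgeR) and in the shRNA arm had 0.50 ± 0.17, which did not pass. Flt1 was called in the shRNA arm, at 1.32 ± 0.36 (adjusted p = 0.0479, edgeR), and was at 1.19 ± 0.36 in the control arm (adjusted p = 0.0869, edgeR). Tek, the angiopoietin receptor, was low throughout at 0.12 to 1.27 FPKM and fell in the shRNA arm, with a log2 fold change of -2.81 ± 0.45 (adjusted p = 0.00825, edgeR). In the control arm it was lower as well, without a call (-1.12 ± 0.43, adjusted p = 0.160, edgeR). Its difference between the arms, -1.69 ± 0.62, did not pass (adjusted p = 0.680, edgeR). The mean of Tek before induction was 0.525 FPKM in NC and 1.15 in KD-Nap1l2.

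**Figure D5:**
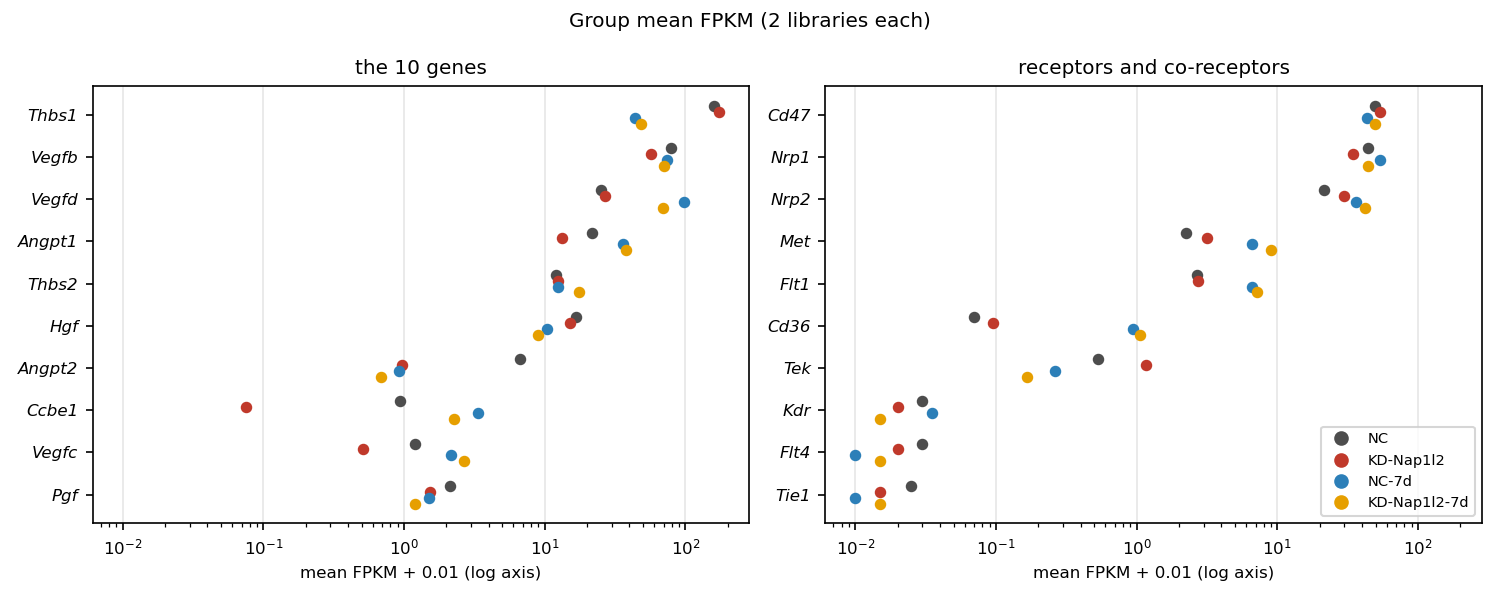
Group mean FPKM plus 0.01 (horizontal log axes, 2 libraries a group) of the 10 genes and of 10 receptors and co-receptors, 1 row per gene and coloured by group. Kdr, Flt4 and Tie1 lie near 0, Met and Flt1 lie higher in the 2 induced groups, and Ccbe1 in KD-Nap1l2 stands far below its other groups.

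Of 6 genes for the activation of Hgf and its inhibitors, Plau alone could be tested, at 3.52 to 19.0 FPKM, and it was not called in any comparison with edgeR. The other 5, Hgfac, St14, Hpn, Spint1 and Spint2, were at or below 0.56 FPKM. A further list held 30 other ligands and related secreted proteins of vessel growth, of which 28 were tested. In the knockdown comparisons 0 of the 28 were called. With induction in the control arm 1 was called higher and 5 lower, and in the shRNA arm 2 higher and 8 lower, against 8.21% and 14.2% of all genes called in either direction, with medians of -0.01 and -0.27 on the log2 scale. Pdgfc, a platelet-derived growth factor, was called higher in both arms, by 2.88 ± 0.23 and 2.12 ± 0.21 on the log2 scale. Pdgfb, Pdgfd, Angptl1, Sema3a and Slit3 were called lower in both arms. Pdgfb, which recruits pericytes, had log2 fold changes of -1.51 ± 0.23 and -1.44 ± 0.23, and Angptl1, an angiopoietin-like protein, -3.54 ± 0.52 and -4.31 ± 0.54. The guidance cues Sema3a and Slit3 had -1.10 ± 0.16 and -1.75 ± 0.33 in the control arm. In the shRNA arm Angptl4 was called higher and Apln, Sema3c and Slit2 were called lower as well, with log2 fold changes of 1.26 ± 0.23, -2.18 ± 0.51, -1.96 ± 0.37 and -1.13 ± 0.17. The control arm had the same directions without a call, at 0.78 ± 0.23, -0.91 ± 0.50, -1.43 ± 0.37 and -0.57 ± 0.17 in this order. For the difference between the arms, 0 of the 28 were called.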

How the data were processed

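RNA of C3H10T1/2 cells was sequenced in 4 groups of 2 libraries, assigned by their labels. An estimated count for each gene and each transcript was deposited by the authors, not normalized, and 41.1% of genes have fractional values. FPKM values were made by the authors from these counts by gene length and library size. Libraries and sequencing were by BGI. The submitters' processing notes name BWA, Bowtie2, RSEM and the build GRCm38.p6, with no role given. The authors' 2 tables of comparisons (fold changes, p-values and q-values) were not used. Genes of the files carry Entrez identifiers, and gene positions come from GENCODE vM21 (GRCm38).

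Estimated counts were rounded, scaled by TMM and filtered with filterByExpr (13470 of 18605 genes). All 8 libraries were fitted in edgeR 4.0.16 (R 4.3.3) with 1 factor of 4 groups, and 5 contrasts were put to the quasi-likelihood test, with p-values adjusted over all genes tested by Benjamini-Hochberg. An adjusted p under 0.05 is a call. A standard error is the log2 fold change over the square root of F. With 2 libraries against 2 an exact permutation test cannot go below p = 0.333, so none was run on single genes. The floor of 3 counts covers counting error only.

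The members, lists and tests were chosen with earlier results of these data known. No p-value is given for a member in KD-Nap1l2 against NC, nor for Ccbe1 and Angpt2 in contrasts that share those libraries. Genes named are the 10 members, Nap1l2, the 5 genes most and the 3 least correlated with Ccbe1, the genes of the pathway lists called in any contrast and the receptors with the highest FPKM. Adamts2, Adamts3, Adamts14, Furin, Pcsk5, Pcsk7, Plau and the low receptors and Hgf regulators were named besides, as members of their lists. Alternatives were RLE size factors, DESeq2 1.42.0, no filter, at least 10 counts in every library, only the libraries compared, the replicate block, limma 3.58.1 on log2(FPKM + 1) and log2(FPKM + 0.1), a minimum mean FPKM of 1, counts summed over transcripts, and leaving out each library, where the lone library of a group is assumed to vary like the others. On data simulated for NC-7d against NC (13280 genes), edgeR made 15 false calls. It found 97 of the 100 genes with a 4-fold change and 46 of the 100 with a 2-fold change. DESeq2 found 98 and 67 of these and made 47 false calls. In KD-Nap1l2 against NC, simulated without a change, DESeq2 called 26 genes and edgeR 1, which limits the DESeq2 calls given above. The changed genes were drawn from those above a mean of 2 CPM, so recovery of lower genes was not measured. Promoter windows are RefSeq's. Protein sequences of the members were not compared here. A gene of the ligand list entered the counts and is not reported here. Figures were drawn with matplotlib 3.10.9.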

Additional observations from a re-analysis of the deposited data

How the results depend on the processing

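Of 783 log2 fold changes recomputed under alternatives, 720 kept direction and side of the threshold, 14 gained a call and 29 lost one. The other 20 turned, all 20 in values that were not called. The difference between the arms was counted here for Ccbe1, Angpt2, Vegfc and Vegfd only. Most values were not called in the main fit, and a loss could fall only on those that were. Of the 10 genes, 2 were called in KD-Nap1l2 against NC. There were 1 with at least 10 counts in every library (Ccbe1 then could not be tested), 1 on log2(FPKM + 1), also with a mean FPKM of at least 1, 0 on log2(FPKM + 0.1) and 0 with only the libraries compared, and 0 to 3 when a library was left out. The difference between the arms called 0, but 2 with DESeq2, 1 without a filter and 0 to 1 with a library left out. Leaving out a library gave 2 to 5 members called instead of 4 in each induction contrast, and the low counts came without NC replicate 1 in the control arm and without either KD-Nap1l2-7d library in the shRNA arm. At 7 days 0 members were called in the knockdown contrast under every alternative run. The Thbs2 log2 fold change in NC-7d against NC turned to -5.28e-05 on log2(FPKM + 0.1).

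With the replicate number as a block, KD-Nap1l2 against NC called 1 member and 4 genes in all and Angpt1 in KD-Nap1l2-7d against KD-Nap1l2 was called (adjusted p = 0.00531, edgeR). Over genes, the deviations of same-numbered libraries correlated at -0.061 to 0.104. Such low values show no deviation shared by number, but they cannot tell whether the libraries were handled in pairs.

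With a library left out, the following log2 fold changes turned. In KD-Nap1l2 against NC, Hgf ran from -1.17 to 0.38, Pgf from -1.28 to 0.020, Thbs1 from -0.38 to 0.84, Thbs2 from -0.44 to 0.46 and Vegfd from -0.14 to 0.32. In KD-Nap1l2-7d against NC-7d, Angpt1 ran from -0.42 to 0.78, Hgf from -0.35 to 0.0036, Pgf from -0.77 to 0.0026 and Vegfb from -0.29 to 0.11. In KD-Nap1l2-7d against KD-Nap1l2, Hgf ran from -1.26 to 0.29, Pgf from -0.85 to 0.45 and Vegfb from -0.025 to 0.70. In NC-7d against NC, Thbs2 ran from -0.47 to 0.46 and Vegfb from -0.33 to 0.16.

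Counts over all genes moved more. KD-Nap1l2 against NC called 11 genes, and 0 to 562 under the alternatives, with 453 by DESeq2 and 562 without KD-Nap1l2 replicate 1. NC-7d against NC called 1106, and 122 without NC replicate 1. KD-Nap1l2-7d against KD-Nap1l2 called 1912, and 305 and 330 without KD-Nap1l2-7d replicate 1 and 2. The 7-day knockdown contrast called 0, and 78 by DESeq2. The cause was not tested. For Ccbe1 in KD-Nap1l2 against NC, adding 1 to FPKM values below or near 1 gave -0.86 in place of -3.88. Ccbe1 had 6 and 7 counts in KD-Nap1l2, so its level there rests on few reads.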

Other observations

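In the gene table, Runx2, a transcription factor of osteoblast formation, was the 1 gene of 18605 whose FPKM departed from the sum of its transcripts' FPKM, and it was named after its values were seen. In replicates 1 and 2, the gene table gave 11.48 and 10.54 FPKM in NC, 13.2 and 14.39 in NC-7d, 15.2 and 15.58 in KD-Nap1l2, and 15.07 and 15.98 in KD-Nap1l2-7d. The transcript sums were 15.09 and 14.36 FPKM in NC, 11.48 and 10.54 in NC-7d, 13.21 and 15.58 in KD-Nap1l2, and 9.61 and 9.87 in KD-Nap1l2-7d. The gene's estimated counts were 1571 and 1603 in NC, 1097 and 1092 in NC-7d, 1352 and 1604 in KD-Nap1l2, and 973.6 and 980.2 in KD-Nap1l2-7d. The counts and the transcript sums were thus lower at 7 days in both arms, while the FPKM of the gene table was higher at 7 days in the control arm. The cause was not tested, and none of the 10 vessel growth genes was affected.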
